A study of Mus musculus with 7 samples.

Results

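Immunoglobulin and T cell receptor gene segments were followed in RNA of mouse spleen monocytes on 7 Affymetrix Mouse Gene 2.0 ST arrays, on which a gene is read by 1 or more probe sets. The members were all probe sets listed with a single gene symbol that is an immunoglobulin heavy chain (Igh), kappa (Igk) or lambda (Igl) segment, or a T cell receptor alpha (Tra), beta (Trb), gamma (Trg) or delta (Trd) segment. This gave 50 of the 41345 probe sets on the arrays, under 28 symbols. Of these, 29 probe sets (20 symbols) belonged to immunoglobulin loci and 21 (8 symbols) to T cell receptor loci. Ighmbp2, whose name fits the pattern but which is no receptor segment, was left out. No member was left out for a low level, and 31 of the 50 reached a log2 level of 5 somewhere.

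The samples formed 5 groups of monocytes, all wild type for EPCR (endothelial protein C receptor). HL7G, a monoclonal antiphospholipid antibody given at 400 ng/ml, and the unstimulated condition had 1 array from each of 2 mice. A single array, from mouse 1, was made with R848 at 2 µg/ml, a small molecule that activates TLR7. The same holds for CpG B at 2.5 µM, a synthetic DNA that activates TLR9, and for poly I:C at 1 µg/ml, which imitates viral RNA and activates TLR3. Stimulation lasted 3 h, and no time is listed for the unstimulated samples, so any part of time in culture in the differences was not tested. The labels state neither strain, age and sex of the mice nor how the monocytes were selected. An IgG treatment that the protocol lists was not analysed here. The comparisons ask how receptor segment transcripts in these cells read after the antibody or an agonist.

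B cells build an antibody from rearranged variable (V), diversity, joining (J) and constant segments of the heavy chain locus and from V, J and constant segments of a light chain locus. T cells build their receptor in the same way from the T cell receptor loci. Unrearranged segments can also be transcribed as germline RNA. Monocytes are not known to use rearranged antigen receptors, and the markers of B and T cells are given below beside these transcripts. V segments of a family are alike in sequence, and probes for one can bind others.

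The probe sets covered the loci unevenly. The heavy chain constant regions had 9 probe sets, 7 listed under Ighm, the constant region of IgM, and 2 under Ighg3, that of IgG3. Heavy chain V segments had 3 probe sets, kappa V segments 15, and Igkj1 and Iglv1 1 each. Among T cell receptor segments 18 probe sets belonged to 5 alpha V segments, 1 to Trbv13-2, and 1 each to Trgv5 and Trgv6. The constant regions Ighd, Igkc, Iglc1, Trac, Trbc1, Trbc2, Trdc and Trgc1, and the other constant regions of these loci, were not analysed here. The Trav12-2 probe sets 17299849 and 17299926 held identical values on every array, as did 17299857 and 17299934, so the 50 members carry 48 separate readings. Probe sets differ in how strongly they bind their target, so levels were compared between arrays and not between probe sets.

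**Figure D1:**
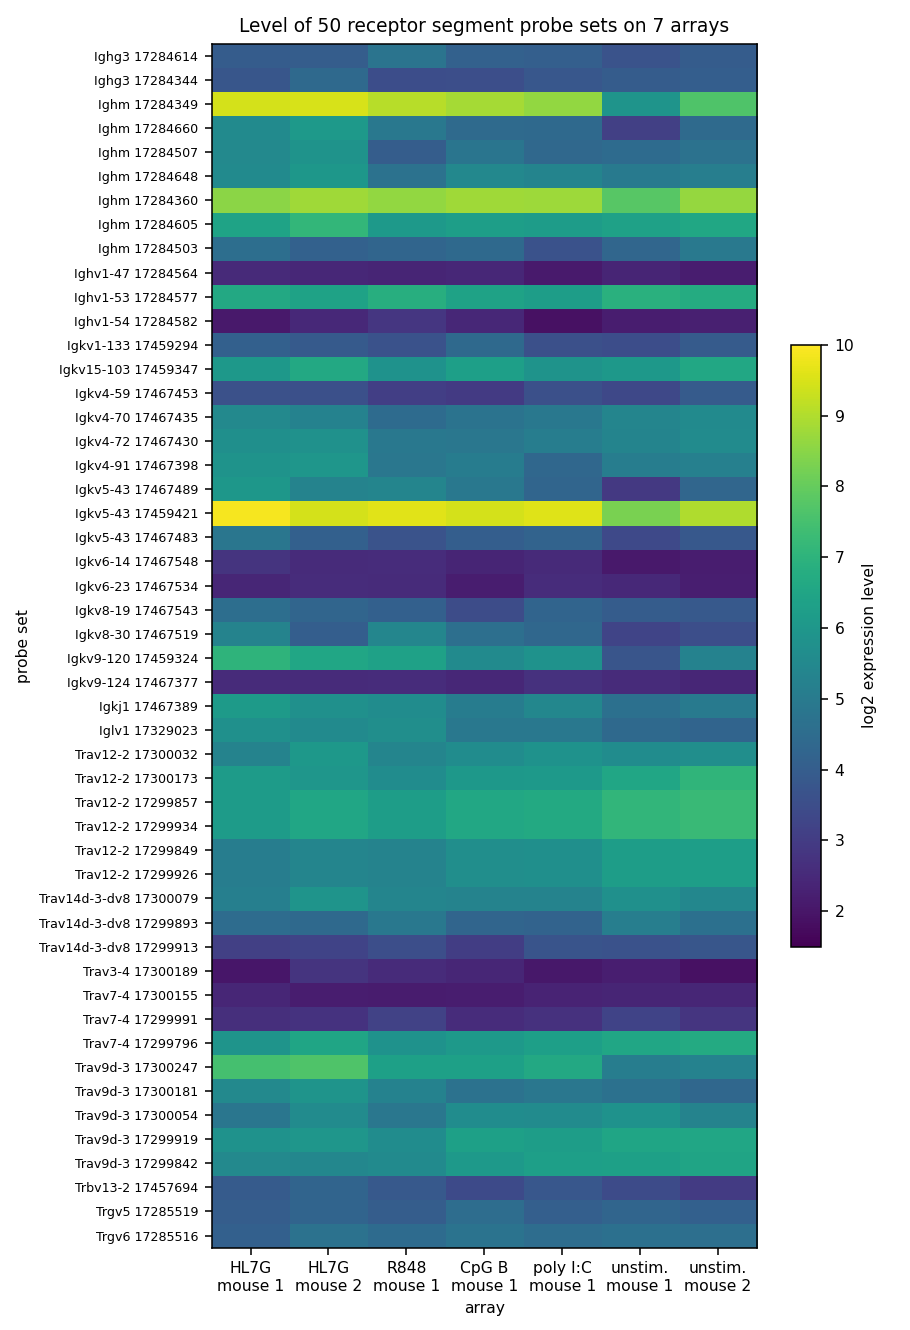
Log2 expression level (colour) of the 50 receptor segment probe sets (rows, symbol and probe set number) on the 7 arrays (columns). Lighter colours are higher levels; Ighm 17284349, Igkv9-120 and Trav9d-3 17300247 are lighter on the HL7G arrays at the left than on the unstimulated arrays at the right, and many alpha V probe sets differ little across the columns.

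In the HL7G samples, 2 members rose in the limma fit over all 41345 probe sets and none fell. These were Trav9d-3, an alpha V segment, in its probe set 17300247, and Iglv1, a lambda V segment. They make 4.0% of the members, against 5.25% of all probe sets called in either direction, 3.22% higher and 2.02% lower, so the share of members called was near the background. With the mouse as a block in the fit, 4 members were called higher and none lower. Beyond the calls, 25 of the 29 immunoglobulin probe sets had a difference above 0 (median 0.42) and 17 of the 21 T cell receptor probe sets one below 0 (median -0.35). Over all probe sets 36.6% lay above 0, with a median of -0.15. A difference of at least 1 on the log2 scale was seen higher in 11 members (22.0%) and lower in 2 (4.0%), against 7.64% and 3.71% of all probe sets. Over the 23521 single-symbol probe sets the shares were 8.48% and 1.04%. The 2 lower members are the identical Trav12-2 pair 17299849 and 17299926, so 1 reading. At an unadjusted p under 0.05 there were 24 members (48.0%), against 24.6% of all probe sets.

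The calls rested on few arrays. A fit without 1 HL7G or unstimulated array leaves that group a single array, so each probe set's own spread comes from the other pair alone. A call lost there therefore does not tell a smaller difference from a less certain spread. No member was called without the mouse 1 unstimulated array or without the mouse 1 HL7G array, and no probe set of the whole table was called there either. When only the 19415 probe sets that reached a level of 5 on any array were tested, 8 of 31 members were called higher and 3 lower, against 9.21% and 5.0% of all probe sets in that test. Of the 8, 5 reached that level only on stimulated arrays and so entered the test through the groups where they were high, and of the 3 lower ones 2 are an identical pair. These counts are a description and support no rise. Over the fits that left out 1 HL7G or unstimulated array, 22 to 28 of 29 immunoglobulin probe sets lay above 0 (medians 0.32 to 0.50) and 12 to 17 of 21 T cell receptor probe sets below 0 (medians -0.50 to -0.19). The 12 (57.1%, against 60.3% of all probe sets) came without the mouse 1 HL7G array. After median centring 13 lay below 0 (61.9%, against 54.6%). The mouse 1 unstimulated array read several abundant transcripts low. Actb, the cytoskeletal actin, had 9.34 and 8.31 in the HL7G samples of mouse 1 and mouse 2 and 5.02 and 6.81 in the unstimulated ones, and B2m, which pairs with MHC class I heavy chains, had 10.26 and 9.91 against 5.74 and 7.90. Their part in the differences below was not tested.

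Trav9d-3, read by probe set 17300247, had levels of 7.50 and 7.67 in the HL7G samples of mouse 1 and mouse 2, 6.32 with R848, 6.32 with CpG B and 6.63 with poly I:C, against 5.09 and 5.27 in the unstimulated samples. The HL7G arrays were the highest of the 7 and the unstimulated ones the lowest, with no overlap. The rise with HL7G was 5.28-fold (log2 difference 2.40 ± 0.20 SE, n = 2 against 2, limma adjusted p = 0.0243), and it was 2.41 in mouse 1 and 2.40 in mouse 2. Without the mouse 1 unstimulated array the difference was 2.31 (adjusted p = 0.105), while leaving out HL7G of mouse 1 gave 2.49 (adjusted p = 0.117). In these bulk samples a different number of cells of a type and a different amount of RNA per cell cannot be told apart, for higher as for lower levels.

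The 5 probe sets listed under Trav9d-3 did not read alike. Probe set 17300181 had 5.51 and 5.91 with HL7G, 5.28 with R848, 4.70 with CpG B and 4.88 with poly I:C, against 4.65 and 4.35 unstimulated (1.21 ± 0.24, adjusted p = 0.0508). Probe set 17299842 went the other way, at 5.49 and 5.43 with HL7G, 5.56 with R848, 6.07 with CpG B and 6.31 with poly I:C, against 6.32 and 6.45 unstimulated (-0.93 ± 0.19, adjusted p = 0.0540). The remaining ones, 17299919 and 17300054, had differences of -0.62 and -0.35, the second with -1.0 in mouse 1 and 0.30 in mouse 2. Within this symbol the differences spanned 3.33 log2 units, so no single direction can be given for the gene. When only the brighter probe sets were tested, 17299842 passed as lower (adjusted p = 0.0475).

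The other alpha V probe sets lay mostly below 0. Trav12-2 had 6 probe sets, all with a difference below 0. The identical readings of 17299849 and 17299926 were 5.10 and 5.37 in the HL7G samples, 5.29 with R848, 5.71 with CpG B and 5.73 with poly I:C, against 6.22 and 6.25 in the unstimulated ones. Both unstimulated values lay above the other 5, and the HL7G difference was -1.0 ± 0.20 (adjusted p = 0.0519). The other identical reading, of 17299857 and 17299934, was 6.16 and 6.52 with HL7G, 6.22 with R848, 6.59 with CpG B and 6.67 with poly I:C, against 7.11 and 7.27 unstimulated (-0.85 ± 0.22, adjusted p = 0.0879). Again both unstimulated arrays were the highest. Probe set 17300173 had 6.18 and 5.95 with HL7G against 6.53 and 7.08 unstimulated (adjusted p = 0.157), without overlap, and 17300032 had a difference of -0.0063. None of these 6 passed the test, although 17299849 and 17299926 did when only the brighter probe sets were tested (adjusted p = 0.0451).

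Trav14d-3-dv8, a V segment shared by the alpha and delta chains, had 3 probe sets with differences of -0.55, -0.44 and -0.061. In the first, 17299913, the HL7G samples had 3.10 and 3.22 and the unstimulated samples 3.64 and 3.77, and in the last, 17300079, the mice differed in sign at -0.60 in mouse 1 and 0.47 in mouse 2. Trav7-4 had -0.40, -0.30 and -0.091 in its 3 probe sets. Trav3-4, at levels between 1.87 and 2.78 on all arrays, had 0.36, again with opposite signs in mouse 1 (-0.18) and mouse 2 (0.91). Adjusted p-values for these 7 probe sets lay between 0.162 and 0.914, and none was called. Over the 18 alpha V probe sets the HL7G arrays lay wholly below the unstimulated arrays in 11 (61.1%) and wholly above in 2 (11.1%). With identical readings counted once this was 9 of 16 (56.25%) and 2 of 16 (12.5%). Over all probe sets 38.4% lay wholly below and 21.6% wholly above, so lying lower was common in this table.

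The beta and gamma V segments were few and dim. Trbv13-2, a beta V segment, had 3.93 and 4.25 in the HL7G samples, 3.89 with R848, 3.42 with CpG B and 3.82 with poly I:C, against 3.43 and 2.99 in the unstimulated ones. The HL7G values lay above both unstimulated values, and the difference was not called (0.88 ± 0.25, adjusted p = 0.105). Trgv5 had 4.01 and 4.23 with HL7G against 4.27 and 4.10 unstimulated, and Trgv6 4.12 and 4.71 against 4.63 and 4.61. For both gamma V segments the groups overlapped (adjusted p = 0.860 and 0.637).

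**Figure D2:**
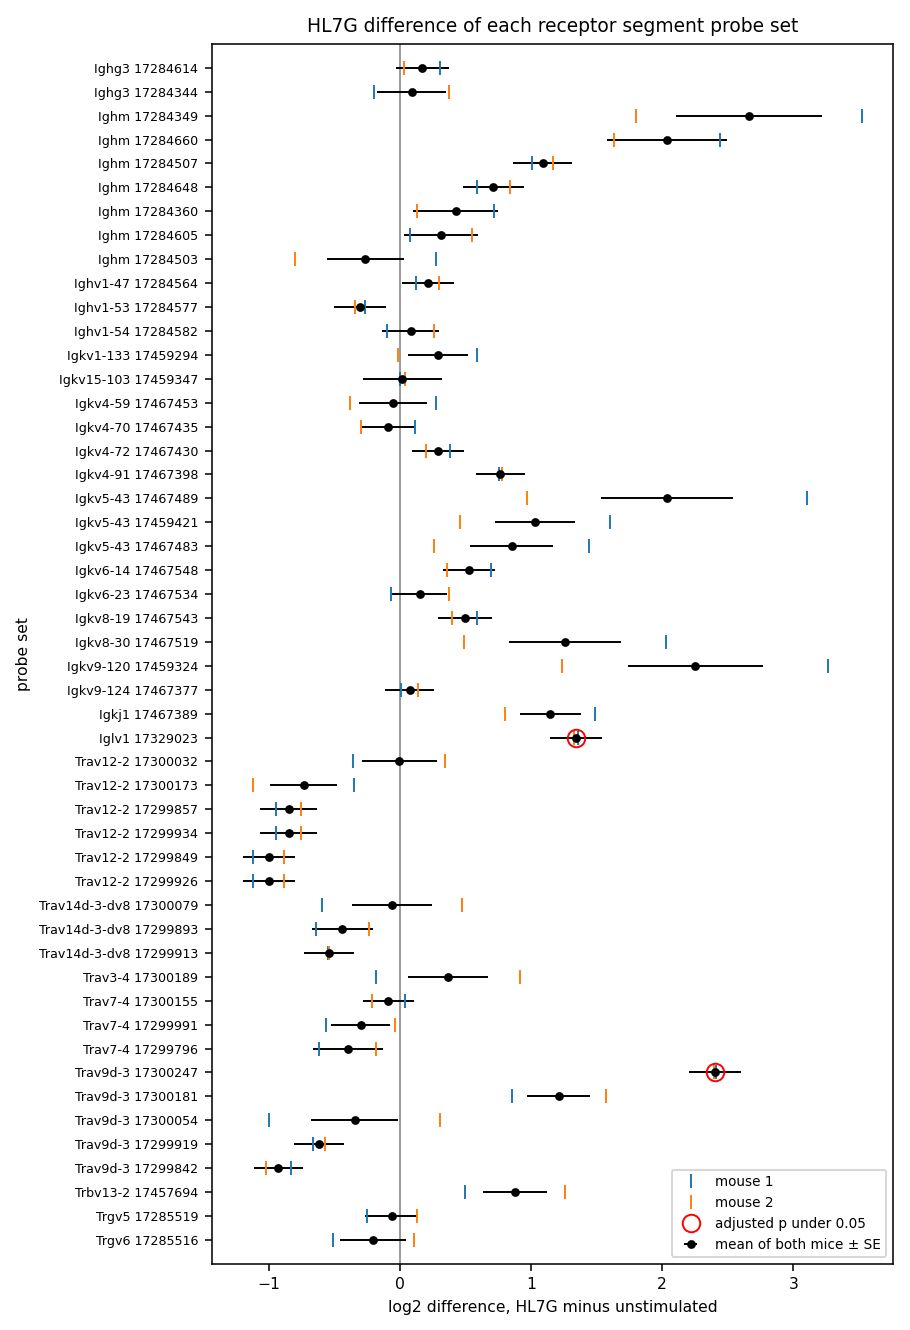
Log2 difference, HL7G minus unstimulated, of each of the 50 receptor segment probe sets (black points, mean of both mice ± SE from the limma fit over all probe sets), with the differences within mouse 1 and mouse 2 as blue and orange ticks. Red circles mark Iglv1 and Trav9d-3 17300247, the 2 called probe sets, and most immunoglobulin probe sets lie right of 0 while most alpha V probe sets lie left of it.

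Light chain segments made up most of the immunoglobulin probe sets. Iglv1 had 5.77 and 5.57 in the HL7G samples of mouse 1 and mouse 2, 5.71 with R848, 4.91 with CpG B and 4.92 with poly I:C, against 4.40 and 4.25 in the unstimulated samples. All 5 stimulated arrays were above both unstimulated ones. The rise with HL7G was 2.54-fold (1.34 ± 0.20, adjusted p = 0.0308), with 1.36 in mouse 1 and 1.33 in mouse 2. The call ended without any 1 of the 4 HL7G and unstimulated arrays, with differences between 1.25 and 1.44 and adjusted p between 0.0509 and 0.135.

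Igkj1, the first kappa joining segment, had 6.12 and 5.77 with HL7G, 5.62 with R848, 5.08 with CpG B and 5.43 with poly I:C, against 4.63 and 4.97 unstimulated. Every stimulated value was above both unstimulated values, and the HL7G difference of 1.15 ± 0.23 was short of the threshold (adjusted p = 0.0545).

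Among the 15 kappa V probe sets 13 had a difference above 0, with a median of 0.49, and none was called. In 10 of the 15 (66.7%) the HL7G arrays lay wholly above the unstimulated arrays and in none wholly below, against 21.6% and 38.4% of all probe sets. Igkv9-120 had 7.01 and 6.52 in the HL7G samples, 6.38 with R848, 5.58 with CpG B and 5.85 with poly I:C, against 3.75 and 5.28 in the unstimulated ones. The mouse 1 unstimulated array was lowest by over 1 log2 unit, and the HL7G difference was 3.27 in mouse 1 and 1.24 in mouse 2 (2.25 ± 0.51, adjusted p = 0.0680). With only the brighter probe sets tested Igkv9-120 passed (adjusted p = 0.0492).

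Igkv5-43 was read by 3 probe sets that all lay above 0. Probe set 17467489 had 6.0 and 5.29 with HL7G, 5.38 with R848, 4.91 with CpG B and 4.26 with poly I:C, against 2.90 and 4.31 unstimulated (2.04 ± 0.51, adjusted p = 0.0824). Probe set 17459421 had 9.89 and 9.44 with HL7G, 9.62 with R848, 9.44 with CpG B and 9.59 with poly I:C, against 8.29 and 8.98 unstimulated (1.03 ± 0.31, adjusted p = 0.119). Probe set 17467483 had 4.82 and 4.11 with HL7G against 3.39 and 3.85 unstimulated (adjusted p = 0.176). In all 3 the HL7G values were above both unstimulated values, and the difference was larger in mouse 1 (3.10, 1.60 and 1.44) than in mouse 2 (0.97, 0.46 and 0.26).

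Igkv8-30 had 5.29 in the HL7G sample of mouse 1 and 4.03 in that of mouse 2, 5.41 with R848, 4.59 with CpG B and 4.33 with poly I:C, against 3.26 and 3.55 in the unstimulated samples. The R848 and mouse 1 HL7G arrays stood highest, and the difference was not called (1.26 ± 0.43, adjusted p = 0.151). Igkv4-91 had 5.86 and 5.96 with HL7G and 5.10 and 5.19 unstimulated, while R848 (4.86), CpG B (5.07) and poly I:C (4.35) were all lower than the unstimulated arrays. Its HL7G difference was alike in the mice, 0.76 and 0.77 (adjusted p = 0.0810).

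The other kappa V segments differed less. Igkv6-14 (0.53), Igkv8-19 (0.49), Igkv4-72 (0.29) and Igkv9-124 (0.071) had HL7G values above both unstimulated values. Igkv1-133 (0.29), Igkv6-23 (0.15), Igkv15-103 (0.018), Igkv4-59 (-0.054) and Igkv4-70 (-0.091) overlapped between the groups. Adjusted p-values of these 9 probe sets lay between 0.183 and 0.977. Igkv6-14, Igkv6-23 and Igkv9-124 stayed under a level of 3 on every array.

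Ighm, the constant region of IgM and so the heavy chain of resting B cells, had 7 probe sets listed under its symbol, none of them called. Where in the locus the probes of each lie is not stated. Probe set 17284349 had 9.44 and 9.47 in the HL7G samples, 9.09 with R848, 8.84 with CpG B and 8.62 with poly I:C, against 5.91 and 7.67 in the unstimulated samples. All 5 stimulated arrays lay within 1 log2 unit of each other and above both unstimulated ones. The HL7G difference, the largest of any member, was 3.53 in mouse 1 and 1.80 in mouse 2 (2.66 ± 0.56, adjusted p = 0.0564). It passed with the mouse as a block in the fit (adjusted p = 0.0412) and when only the brighter probe sets were tested (adjusted p = 0.0422).

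Ighm probe set 17284660 had 5.56 and 6.07 with HL7G, 4.92 with R848, 4.45 with CpG B and 4.39 with poly I:C, against 3.12 and 4.44 unstimulated. The HL7G arrays were the highest of the 7, and the poly I:C and CpG B arrays lay close to the mouse 2 unstimulated array (2.04 ± 0.46, adjusted p = 0.0662, and 0.0353 with the mouse as a block). Probe set 17284507 had 5.49 and 5.88 with HL7G, 4.02 with R848, 4.82 with CpG B and 4.36 with poly I:C, against 4.49 and 4.71 unstimulated (1.09 ± 0.23, adjusted p = 0.0558). Here the HL7G arrays stood above all others and the R848 array was the lowest. Probe set 17284648 had 5.56 and 5.99 with HL7G against 4.98 and 5.15 unstimulated (adjusted p = 0.137).

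In the other 3 Ighm probe sets the HL7G and unstimulated values overlapped. They were 17284360 (0.42), 17284605 (0.31) and 17284503 (-0.27), with adjusted p between 0.448 and 0.599. The differences of the 7 probe sets spanned 2.93 log2 units, from -0.27 to 2.66, so the probe sets listed under Ighm disagreed in size and 1 in sign. Ighg3 had 3.98 and 4.0 with HL7G against 3.68 and 3.97 unstimulated in probe set 17284614. In probe set 17284344 it had 3.78 and 4.40 against 3.98 and 4.03. Neither reached a level of 5, and their differences of 0.17 and 0.087 had adjusted p of 0.625 and 0.854.

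The heavy chain V segments differed little. Ighv1-53 had 6.63 and 6.40 in the HL7G samples, 6.82 with R848, 6.39 with CpG B and 6.24 with poly I:C, against 6.90 and 6.74 in the unstimulated ones (-0.31 ± 0.20, adjusted p = 0.387). Its HL7G values were below both unstimulated values. Ighv1-47 (0.21) and Ighv1-54 (0.080) stayed under a level of 3 on all arrays, with adjusted p of 0.531 and 0.839. Across the 29 immunoglobulin probe sets the HL7G arrays lay wholly above the unstimulated arrays in 18 (62.1%) and wholly below in 1, against 21.6% and 38.4% of all probe sets.

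Cell type markers were read beside the segments, each gene by its brightest probe set. Calls are those of the fit over all probe sets, with 3.22% called higher and 2.02% lower. When the brightest probe sets of 11127 genes were tested alone, 16.3% were called higher, and 53.0% lay above 0 (median 0.060). Only genes with a single-symbol probe set were read, 14 of 16 listed for B cells, 16 of 20 for T cells and 2 of 10 for erythroid cells. B cell markers had a difference above 0 with HL7G in 14 of 14 genes (median 1.28), with 6 called higher and none lower, and their summed level was 1129 to 1236 in the HL7G samples, 905 with R848, 676 with CpG B and 776 with poly I:C, against 415 to 517 in the unstimulated samples. Ms4a1, which encodes the B cell surface protein CD20, had 6.34 and 6.48 with HL7G against 4.51 and 4.81 unstimulated and rose by 1.75 ± 0.21 (adjusted p = 0.0244). Cd79a, a signalling partner of surface immunoglobulin, rose by 1.33 ± 0.26 (adjusted p = 0.0491), and Blk, a kinase of B cells, by 1.65 ± 0.20. Blnk, an adaptor of the B cell receptor (2.04, adjusted p = 0.0553), and Fcer2a, the low-affinity IgE receptor (1.84, adjusted p = 0.0875), were not called. The part of B cells in the immunoglobulin differences was not tested.

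Of 10 B cell receptor signalling genes 4 were called higher and none lower (median 1.47), against 3.22% and 2.02% of all probe sets. The 4 included the kinase Syk (1.75 ± 0.24, adjusted p = 0.0281) and the exchange factor Vav1 (1.60), both of which other leukocytes also use. The other calls, Cd79a and Blk, were already counted among the B cell markers. Pik3ap1, an adaptor that links the receptor to PI3-kinase, had 2.14 (adjusted p = 0.0694). Of 10 plasma cell genes none was called (median 0.21). Jchain, which joins IgM and IgA into polymers, had 4.41 and 4.50 with HL7G against 3.57 and 3.59 unstimulated (adjusted p = 0.0581). The transcription factor Irf4 had 7.54 and 5.65 with HL7G against 4.52 and 4.38 unstimulated (2.15, adjusted p = 0.103), Tnfrsf17, a survival receptor of plasma cells, had -0.47, and Creld2, a chaperone of the endoplasmic reticulum, 0.42. Of 13 genes of segment recombination and of the pre-receptors none was called (median -0.17). Xrcc4 and Xrcc5, which act in DNA end joining, had 1.10 and 0.92, Vpreb2, a surrogate light chain, -0.74, and Ptcra, the pre-T cell receptor alpha chain, -0.59.

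T cell markers were read in 16 genes, of which 15 had a difference above 0 (median 0.85). Of the 16, 5 were called higher and none lower, against 3.22% and 2.02% of all probe sets. Their summed level was 1061 to 1254 in the HL7G samples, 791 with R848, 763 with CpG B and 712 with poly I:C, against 538 to 580 in the unstimulated samples. Cd3g, Cd3d and Cd3e encode the CD3 chains that carry the T cell receptor to the surface. Cd3g had 6.90 and 6.68 with HL7G against 4.52 and 4.82 unstimulated and rose by 2.12 ± 0.22 (adjusted p = 0.0243). Cd3d rose by 1.91 ± 0.30 and Cd3e by 1.36 ± 0.23 (adjusted p = 0.0331 and 0.0377), and Il7r, the interleukin-7 receptor, by 2.58 ± 0.46 (adjusted p = 0.0421). In the same samples the 18 alpha V probe sets had a median of -0.42, and the 16 left with identical ones counted once had -0.37. Below 0 lay also 63.4% of all probe sets. By the brightest probe set at 5 or more, a floor that the markers did not have, 4 alpha V genes had a median of -0.23, with 3 below 0. The 1 above 0 there was Trav9d-3 (2.40), on the same side as the CD3 genes. Read without a floor, as the markers were, the brightest probe sets had -0.85 (Trav12-2), -0.40 (Trav7-4), -0.061 (Trav14d-3-dv8), 0.36 (Trav3-4) and 2.40 (Trav9d-3). Of 9 genes of the T cell receptor complex and its signalling 6 were called higher and none lower (median 1.24), against the same 3.22% and 2.02%. The kinase Fyn (1.37, adjusted p = 0.0489) was among the 6. Cd3e, Cd3d, Cd3g and the kinase Zap70, also among the 6, were already counted as called T cell markers. The part of T cells in the Trav9d-3 and Trbv13-2 differences was not tested.

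Monocyte markers had 15 genes with none called (median -0.049), and their summed level was 530 to 577 in the HL7G samples, 455 to 482 with the agonists and 466 to 486 in the unstimulated samples. Of the 15 genes, 7 reached a level of 5 on at least 1 array. On all arrays Ly6c2 and Ccr2, which mark classical monocytes, lay between 3.74 and 4.38 and between 3.76 and 4.09. Lyz2 lay between 4.53 and 7.02 and Csf1r between 4.86 and 5.61. Probe sets differ in binding, so these levels do not rank the genes. The largest differences among the 15 genes were those of Lyz2, or lysozyme (1.79), the chemokine receptor Cx3cr1 (-0.82), the nuclear receptor Nr4a1 (0.73) and Csf1r (0.48). Their adjusted p lay between 0.0505 and 0.268. In limma no gene was called among 10 NK cell (median -0.090), 11 neutrophil (-0.027), 9 plasmacytoid dendritic cell (0.40), 8 conventional dendritic cell (-0.26), 10 red pulp macrophage (-0.054) and 2 erythroid genes (-0.11). In these lists the largest differences were those of Irf8 (2.17) and Bst2 (1.75), with adjusted p of 0.0889 and 0.276.

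**Figure D3:**
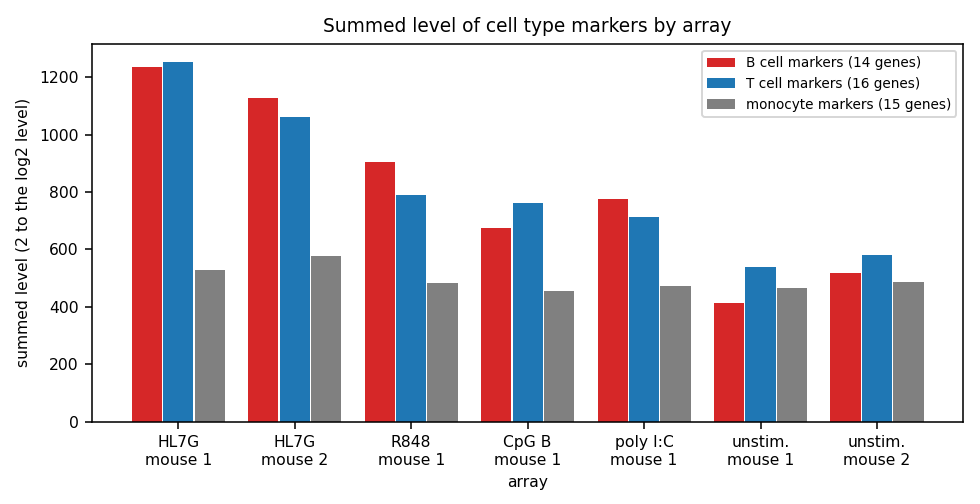
Summed level (2 to the power of the log2 level, added over genes) of 14 B cell, 16 T cell and 15 monocyte markers on each of the 7 arrays. The B and T cell sums are highest in the HL7G samples (1061 to 1254), intermediate with the agonists and lowest in the unstimulated samples (415 to 580), while the monocyte sums lie between 455 and 577.

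The mice were compared within each condition, as mouse 2 minus mouse 1. In the HL7G samples 14 of 29 immunoglobulin probe sets were higher in mouse 2 (median -0.043), and 1 differed by at least 1 log2 unit, Igkv8-30 with -1.26. In the unstimulated samples 23 of 29 were higher in mouse 2 (median 0.25), and 4 differed by at least 1. Ighm 17284349 had 0.037 in the HL7G samples and 1.76 in the unstimulated ones, and Ighm 17284660 had 0.51 and 1.32. Igkv9-120 had -0.50 in the HL7G samples and 1.53 in the unstimulated ones, and Igkv5-43 17467489 had -0.72 and 1.41. These 4 thus differed between the mice by 1 or more without stimulation and by less than that with HL7G, a description with no test, since each mouse is 1 animal. No T cell receptor probe set differed by 1 log2 unit between the mice in either condition. Over all probe sets 4.47% differed by at least 1 in the HL7G samples and 4.0% in the unstimulated ones.

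**Figure D4:**
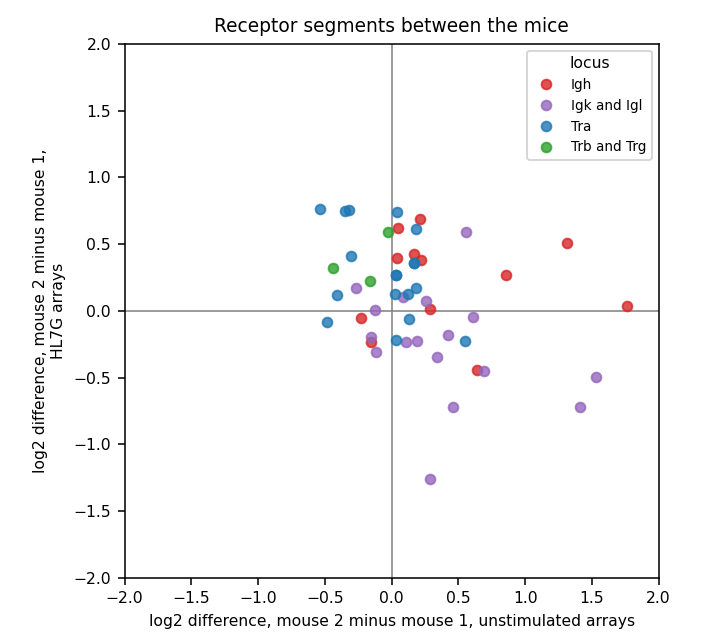
Log2 difference between the mice (mouse 2 minus mouse 1) of the 50 receptor segment probe sets, in the HL7G arrays (vertical axis) against the unstimulated arrays (horizontal axis), coloured by locus. Ighm 17284349, at 0.037 on the vertical and 1.76 on the horizontal axis, lies farthest right, and no probe set is past 1 on both axes.

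The agonists, with a single array apiece, were set against the same 2 unstimulated arrays as HL7G, and no member was called with any of them. In limma no probe set at all was called with R848 or poly I:C and 1 with CpG B, a background of 0.0%, 0.00242% and 0.0% for R848, CpG B and poly I:C. At an unadjusted p under 0.05 there were 18 members with R848 (36.0%, against 18.6% of all probe sets), 5 with CpG B (10%, against 10.7%) and 5 with poly I:C (10%, against 7.72%). The immunoglobulin medians were 0.091 with R848, 0.23 with CpG B and 0.23 with poly I:C, and the T cell receptor medians -0.24, -0.29 and -0.11. The medians over all probe sets were -0.060, -0.082 and -0.084.

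With R848 the largest differences above 0 were those of Ighm 17284349 (2.29), Igkv8-30 (2.01) and Igkv9-120 (1.86), with adjusted p of 0.174, 0.145 and 0.213. Those farthest below 0 were Trav12-2 17300173 (-1.18), Igkv4-70 (-1.0) and the identical pair of Trav12-2 probe sets 17299857 and 17299934 (-0.97). Igkv4-70 read 4.48 with R848 against 5.38 and 5.57 unstimulated. R848 called 1 member, Ighm 17284349, when the mouse 2 unstimulated array was left out, where 140 of all probe sets were called.

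With CpG B the values ran from -0.78 for Trav12-2 17300173, -0.75 for Igkv4-70 and -0.70 for Igkv4-59 to 1.19 for Igkv8-30, 1.30 for Igkv5-43 17467489 and 2.05 for Ighm 17284349. With poly I:C they ran from -0.97 for Ighm 17284503, -0.79 for Igkv4-91 and -0.74 for Trav12-2 17300173 to 1.34 for Igkv9-120, 1.45 for Trav9d-3 17300247 and 1.83 for Ighm 17284349. Thus Ighm 17284349 had the largest difference of any member with each of the 4 stimuli, and each of these comparisons uses the low mouse 1 unstimulated reading of 5.91. Against the mouse 2 unstimulated array alone its differences were 1.80 for HL7G of mouse 2, 1.41 for R848, 1.17 for CpG B and 0.95 for poly I:C, the last 3 across mice.

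**Figure D5:**
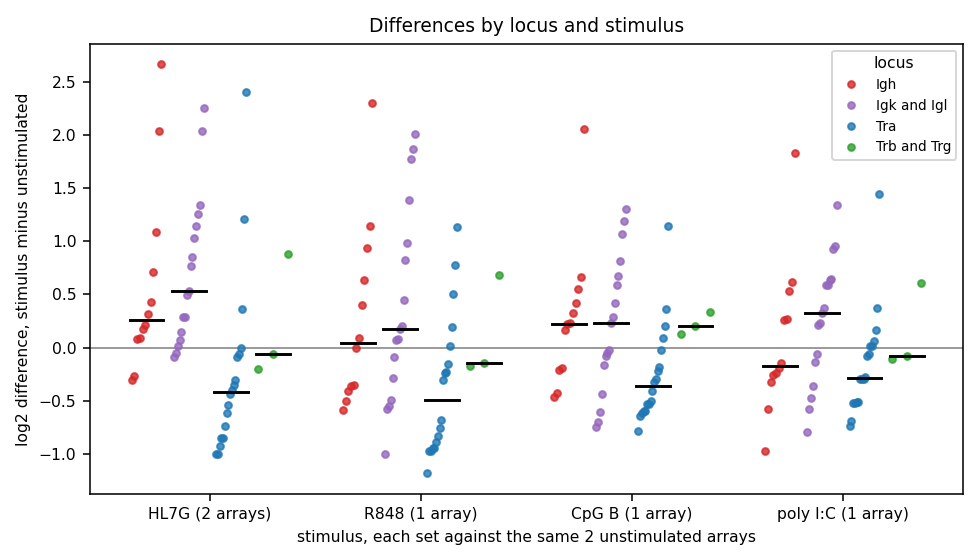
Log2 difference of each member, stimulus minus unstimulated, by stimulus and locus, with the median of each locus as a black bar. All 4 stimuli share the same 2 unstimulated arrays, and Ighm 17284349 is the highest point with each of them (2.66, 2.29, 2.05 and 1.83).

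Setting HL7G directly against the mean of the 3 agonists leaves the unstimulated arrays out of the difference, though not out of the estimated spread. No member and no probe set was called in limma (0.0% of all probe sets), and 11 members (22.0%) had an unadjusted p under 0.05, against 7.79% of all probe sets. Of the immunoglobulin probe sets 24 of 29 lay above 0 (median 0.47), and of the T cell receptor probe sets 9 of 21 (median -0.084), while over all probe sets the median was -0.040. The largest values above 0 were those of Ighm 17284507 (1.29 ± 0.21), Ighm 17284660 (1.23 ± 0.42), Trav9d-3 17300247 (1.16 ± 0.18) and Igkv4-91 (1.15 ± 0.17), with adjusted p between 0.533 and 0.614. Those farthest below 0 were Trav9d-3 17299842 (-0.52), the identical Trav12-2 readings of 17299849 and 17299926 (-0.34) and Ighg3 17284614 (-0.34). For Ighm 17284349 the HL7G samples averaged 9.45 and the agonist samples 8.85, a difference of 0.60 ± 0.51 (adjusted p = 0.806).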

How the data were processed

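RNA of selected mouse spleen monocytes was hybridised to 1-colour Affymetrix Mouse Gene 2.0 ST arrays. The deposited values are log2 levels per probe set, made by the authors with RMA in Affymetrix Expression Console, per the submitters' processing notes, which also name Transcriptome Analysis Console. RMA evens out arrays, so differences are relative to each array's other probe sets. Array medians lay between 4.40 and 4.54. Software versions, probe positions and the genome build of the array design are not stated there, and coordinates are left out. Symbols came from the platform annotation, in which 23521 of 41345 probe sets had 1 symbol, 1814 several and 16010 none. All 50 members matched the RefSeq table (assembly GRCm38.p6) by Entrez identifier, with unchanged symbols.

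The 5 groups were fitted together on all 7 arrays with limma 3.58.1 in R 4.3.3, with no filter on level, 2 residual and 3.64 prior degrees of freedom. Groups with 1 array took their spread from the HL7G and unstimulated pairs. P-values were adjusted by Benjamini-Hochberg over all 41345 probe sets, two-sided, and a probe set was called at an adjusted p under 0.05. The procedure was tested on simulated data with independent noise and no array effect, so that test does not cover an array that reads low. Arrays with the same mouse number come from the same animal, per the labels. Deviations of same-numbered arrays from their group means correlated at -0.054 over all probe sets. Precision is limited by the number of arrays.

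The members, marker lists and naming rule were chosen with earlier results of these data known. By that rule, called members or, failing that, those with the largest differences each way were named in each comparison, with all constant regions, the brightest members and up to 4 genes of each list by HL7G difference. In the end every member was described. Alternatives were the mouse as a block, each HL7G and unstimulated array left out, a level of at least 5, the brightest probe set per gene, a variance trend, median centring, cyclic loess and quantile normalization.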

Additional observations from a re-analysis of the deposited data

Results flagged for a closer look

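A probe set outside the members, 17459415, is listed with several symbols that include receptor segments, so no gene is named for it. It was called higher with HL7G. It had 9.74 and 9.59 in the HL7G samples of mouse 1 and mouse 2, 9.40 with R848, 9.47 with CpG B and 9.45 with poly I:C, against 7.86 and 8.14 in the unstimulated samples. The HL7G difference was 1.66 ± 0.21 (limma adjusted p = 0.0259). All 5 stimulated arrays were above both unstimulated arrays.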

How the results depend on the processing

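HL7G called 2 members higher and none lower. The replicate block, with mouse as a term, gave 4 higher, and leaving out 1 HL7G or unstimulated array gave 0 to 5 higher and none lower, with 0 called without the mouse 1 unstimulated or the mouse 1 HL7G array. Testing only probe sets at 5 or more gave 8 higher and 3 lower of 31 members, and 5 of the 8 reached 5 only on stimulated arrays. On those same 31 members, so with the filter as well, cyclic loess gave 5 higher and 3 lower, against 8.26% and 5.02% of all probe sets tested. Quantile normalization with the filter gave 8 and 3, against 8.35% and 6.52%. In each of these 3 settings the 3 lower calls are 2 separate readings. The brightest probe set of each of 11127 genes gave 5 higher and 1 lower of 15, against 16.3% and 1.89% of all genes tested. Of those 5, 2 reached a level of 5 only on stimulated arrays. Median centring gave 5 higher of 50 members, against 3.73% of all probe sets. Iglv1 lost its call in all 4 fits without 1 array, Trav9d-3 17300247 in the 2 without a mouse 1 array, and both were called in the other settings named here. Iglv1 reached a level of 5 only on the HL7G and R848 arrays. In the settings filtered at 5, the one by gene included, it was tested only for that reason, and its calls there add no support. The members' median HL7G difference of 0.12 ranged from 0.020 to 0.30 without single arrays, and was 0.29 at 5 or more and 0.42 by gene.

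R848 called 0 to 1 member higher without single arrays. Its median of -0.12 was -0.0059 by gene, -0.30 at 5 or more, and at 5 or more also -0.39 with loess and -0.38 with quantile normalization. The CpG B median of -0.023 was 0.12 with the replicate block. The poly I:C median of -0.069 was -0.24 at 5 or more, -0.29 by gene and -0.30 with the filter and quantile normalization. The median of HL7G against the agonists, 0.15, was 0.35 by gene. In 21 members (42.0%, against 21.6% of all probe sets) the HL7G arrays lay wholly above the unstimulated ones. Of these 21, 10 were left at a mean level of at least 5. The Igh constant median of 0.42 was 0.90 with the filter at 5 alone, 0.92 with loess added and 0.82 with quantile normalization added (6 members), and 0.20 to 0.80 without single arrays. The Ighv median of 0.080 was -0.31 with the filter alone, -0.28 with loess and -0.49 with quantile normalization (1 member), and -0.12 to 0.18 without single arrays. Filters on level and on genes leave fewer members, and the cause of the other shifts was not tested. Centring moved the median of all probe sets from -0.15 to -0.046. Counting identical members once, chosen after seeing the data, changed no count of called members without a filter. The block left the member counts of the other comparisons at 0, and over all probe sets it called 1093 higher and 646 lower with HL7G, against 1332 and 837. With 2 arrays against 2, or 1 against 2, differences near the spread between arrays are not detectable.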

Other observations

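Of the 6 probe sets listed with several symbols that include receptor segments, 17459423 had the largest HL7G difference. It had 10.81 and 10.39 in the HL7G samples of mouse 1 and mouse 2, 10.18 with R848, 10.20 with CpG B and 10.17 with poly I:C, against 5.90 and 9.16 in the unstimulated samples (3.07 ± 0.99, limma adjusted p = 0.139). The mouse 1 unstimulated array lay over 3 log2 units below the mouse 2 one. The abundant transcript Eef1a1, a translation elongation factor, had 10.80 and 10.38 in the HL7G samples, 10.36 with R848, 10.27 with CpG B and 10.23 with poly I:C, against 6.61 and 9.46 in the unstimulated samples. Gapdh, a glycolytic enzyme, had 7.75 and 8.07 in the HL7G samples against 9.13 and 8.75 in the unstimulated ones.

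The remaining 4 probe sets of this kind had HL7G differences between -0.22 and 0.63, none of them called. No member differed by at least 1 log2 unit in opposite directions in the 2 mice, while 15 members had opposite signs of smaller size.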
